A study of Homo sapiens with 2 samples.

Results

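Okadaic acid, a polyether toxin of marine dinoflagellates, was given to K562 cells for 6 h in 2 of the 192 wells of a screen of transcriptional and epigenetic inhibitors, 1 well on each of 2 plates. The members are the wells whose deposited drug name is OkadaicAcid, and they were compared with the 24 DMSO wells, 12 per plate, and with the 2 EtOH wells as a second solvent reference. K562 is an established chronic myeloid leukaemia line with an erythroid program, and every well held these cells with 1 agent or solvent. Gene expression was read by MAC-seq, a method that barcodes the cDNA of each well, pools the wells of a plate and sequences the 3′ ends of mRNAs. The screen also held 6 wells of AZ5576, a CDK9 inhibitor, 6 wells of ActD (actinomycin D, a DNA intercalator that blocks RNA synthesis) and 2 wells of Phendione, which are used below as further references. The sources used here give neither the dose of okadaic acid nor its solvent. The submitters call the duplicates technical, so p-values measure only spread between wells, which the main edgeR fit estimated over all wells of the screen. Whether both plates were treated on the same day was not given.

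Okadaic acid blocks serine/threonine phosphatases of the PP2A family, and PP1 less strongly. PP2A is a holoenzyme of a catalytic, a scaffold and a variable regulatory subunit, and it removes phosphates placed by the MAP kinases and many other kinases. A PP2A core also sits in the Integrator complex, where it opposes CDK9 on RNA polymerase II near gene starts. Immediate early genes such as FOS and EGR1 are switched on by phosphorylated transcription factors without new protein synthesis, and okadaic acid is known to raise their mRNAs in many cell types.

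The okadaic acid wells held 1001045 and 924079 human counts and 14609 and 14262 detected genes. DMSO wells ranged from 173553 to 1030814 human counts (median 728691.5), and the 8 DMSO wells of the first plate column were the shallow ones, with 173553 to 462611. Human counts per count of the ERCC RNAs, synthetic RNAs added to each lysate, were 5.06 and 5.22 with okadaic acid and 2.95 to 7.03 (median 4.93) with DMSO. This difference of 0.11 on the log2 scale was within the spread between wells (exact permutation within plates, two-sided p = 0.645; the smallest possible p is 0.0059). A loss of cells and a loss of RNA per cell cannot be told apart in this measure. Summed K562 and erythroid marker transcripts came to 29075 to 29542 CPM (a gene's count relative to the scaled library total) with okadaic acid and 25324 to 31680 with DMSO. Of the 17 tested markers 2 rose and none fell against DMSO, beside 14.4% higher and 15.6% lower over all tested genes. Against EtOH 1 rose and 4 fell, beside 6.82% and 8.26%. Of the markers of other cell types, 7 of 10 megakaryocyte genes were at 0 in all 28 okadaic acid, DMSO and EtOH wells. Summed lymphocyte markers came to 62.77 to 67.93 CPM with okadaic acid and 58.65 to 107.61 with DMSO. Epithelial markers came to 82.91 to 87.65 and 40.33 to 85.6, and their 1 tested gene was called higher (log2 0.37). Fibroblast markers were at 0 with okadaic acid and at most 3.64 with DMSO. The summed monocyte markers came to 17.0 to 25.97 CPM with okadaic acid and 1.92 to 19.3 with DMSO. The single tested monocyte gene was LYZ (lysozyme), at 17.5 and 24.6 CPM against 0 to 17.1, and its part in other results was not tested.

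Across 10312 tested genes, 1490 (14.4%) were higher and 1613 (15.6%) lower with okadaic acid than with DMSO, 30.1% in all (edgeR quasi-likelihood test, adjusted p under 0.05). Large changes ran mostly downwards: 138 genes (1.34%) were at least 2-fold higher and 921 (8.93%) at least 2-fold lower. The balance of calls of any size differed with abundance. Among the 3861 genes with a mean of at least 5 log2 CPM, 29.9% were higher and 18.3% lower, with a median log2 change of 0.11, whereas among the 6451 less abundant genes 5.18% were higher and 14.1% lower, with a median of -0.23. Changes of at least 2-fold ran downwards in both strata, with 34 higher and 157 lower among the more abundant genes and 104 and 764 among the rest. Of the 908 lower calls in the less abundant genes, 66 had no count in either okadaic acid well, so their fitted changes are no bounds. Both okadaic acid wells lay above all 24 DMSO wells for 838 genes (8.13%) and below all of them for 690 (6.69%). With 1 okadaic acid well left out, 1786 (without plate 1) or 1499 (without plate 2) genes were called, and scaling to the ERCC RNAs gave 1862, of which 709 were higher and 1153 lower. Scaling by library size alone gave 1199 higher and 1852 lower. Without the 8 shallow DMSO wells of the first column 2785 genes were called, of which 2686 were among the 3103 in the same direction.

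**Figure D1:**
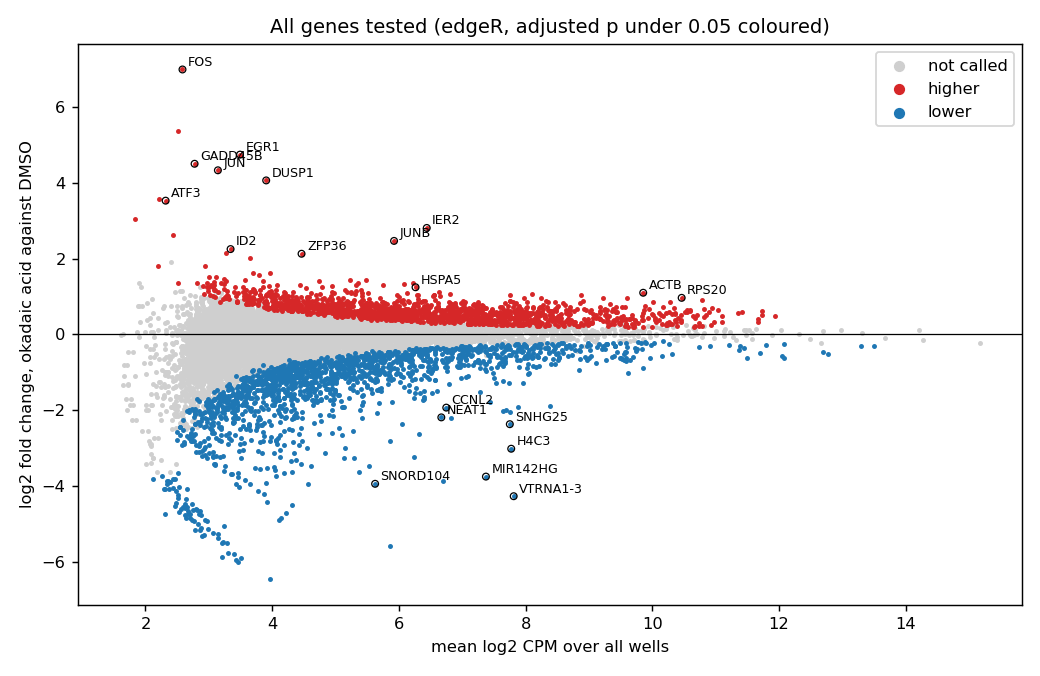
Log2 fold change of okadaic acid against DMSO (y axis) over mean log2 CPM (x axis) for the tested genes, 1 point per gene, with higher calls in red, lower calls in blue and the rest in grey. FOS at 6.98 is the highest of the labelled genes, and VTRNA1-3 at -4.26 and SNORD104 at -3.93 are the lowest of them.

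The AP-1 and immediate early genes rose most. Of 14 listed AP-1 genes 9 passed the count filter, and of these 6 rose and 1 fell, with a median log2 change of 2.46. Over all tested genes the median was -0.07, with 14.4% higher and 15.6% lower. Of 37 listed serum response genes 23 were tested, and of these 14 rose and 2 fell, with a median of 0.87. The filter can keep a gene through the wells where it is high, so these shares and medians may lean upwards. FOS, which encodes a partner of JUN in the AP-1 factor, had 111 and 90.7 CPM in the okadaic acid wells. In DMSO, FOS had no count in 17 of 24 wells and reached 6.99 CPM at most, so the groups did not overlap. The change was 126-fold (log2 6.98, SE 0.31, edgeR adjusted p = 1.52e-45).

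JUN had 89.3 and 73.9 CPM with okadaic acid against 0 to 10.5 (median 3.58) with DMSO, a log2 change of 4.32 (SE 0.25). JUNB, a JUN relative, had 277 and 239 CPM against 28.4 to 75.3 (median 44.7), a log2 change of 2.46 (SE 0.12). ATF3, a stress-induced factor of the same leucine zipper class, had 22.6 and 20.2 CPM against 0 to 4.73 (median 1.34), a log2 change of 3.52 (SE 0.39). In each of these genes both wells stood above every DMSO well, and both EtOH wells stayed inside the DMSO range. FOSB rose from a very low level, with 5 and 4 counts in the okadaic acid wells and none in 18 of 24 DMSO wells (log2 3.03, SE 0.73), and its call was lost against the 2 DMSO wells of the same plate column. FOSL1 rose by a log2 change of 1.31 against DMSO, but its wells, at 37.0 and 29.1 CPM, overlapped the DMSO range of 7.32 to 34.9, and the difference from EtOH was 0.41 (SE 0.31, edgeR adjusted p = 0.417). MAFG, a small MAF protein, was the AP-1 list member that fell, to 9.24 and 7.84 CPM from 13.6 to 60.3 (log2 -1.71).

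EGR1, a zinc finger factor, had 132 and 119 CPM with okadaic acid against 0 to 14.2 (median 4.84) with DMSO, a log2 change of 4.73 (SE 0.19). IER2, a short-lived nuclear protein, was the most abundant of these mRNAs, with 469 and 417 CPM against 47.5 to 86.4 (median 66.5), a log2 change of 2.80 (SE 0.10). GADD45B, a binder of stress-activated MAP kinase kinases, had 37.0 and 44.8 CPM against 0 to 5.05 (median 1.24), a log2 change of 4.49 (SE 0.35). The helix-loop-helix inhibitor ID2 (log2 2.25) and ZFP36 (log2 2.13), which encodes tristetraprolin, a protein that speeds decay of AU-rich mRNAs, were also above every DMSO well on both plates. DUSP1, the phosphatase that switches off MAP kinases, had 183 and 155 CPM against 3.73 to 22.6 (median 10.2), a log2 change of 4.06 (SE 0.15, edgeR adjusted p = 2.67e-61). It was the only one of 6 tested MAP kinase feedback genes to pass the test, out of 19 listed. Of 10 tested NF-kB targets, out of 34 listed, only NFKBIA passed, the inhibitor of NF-kB that is itself its target. It had 39.0 and 26.9 CPM against 0 to 24.3 (log2 1.28), a call lost without the plate 1 well. Against EtOH, NFKBIA differed by 0.85 (edgeR adjusted p = 0.0568) and did not pass. For both lists the shares over all tested genes against DMSO were 14.4% higher and 15.6% lower.

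**Figure D2:**
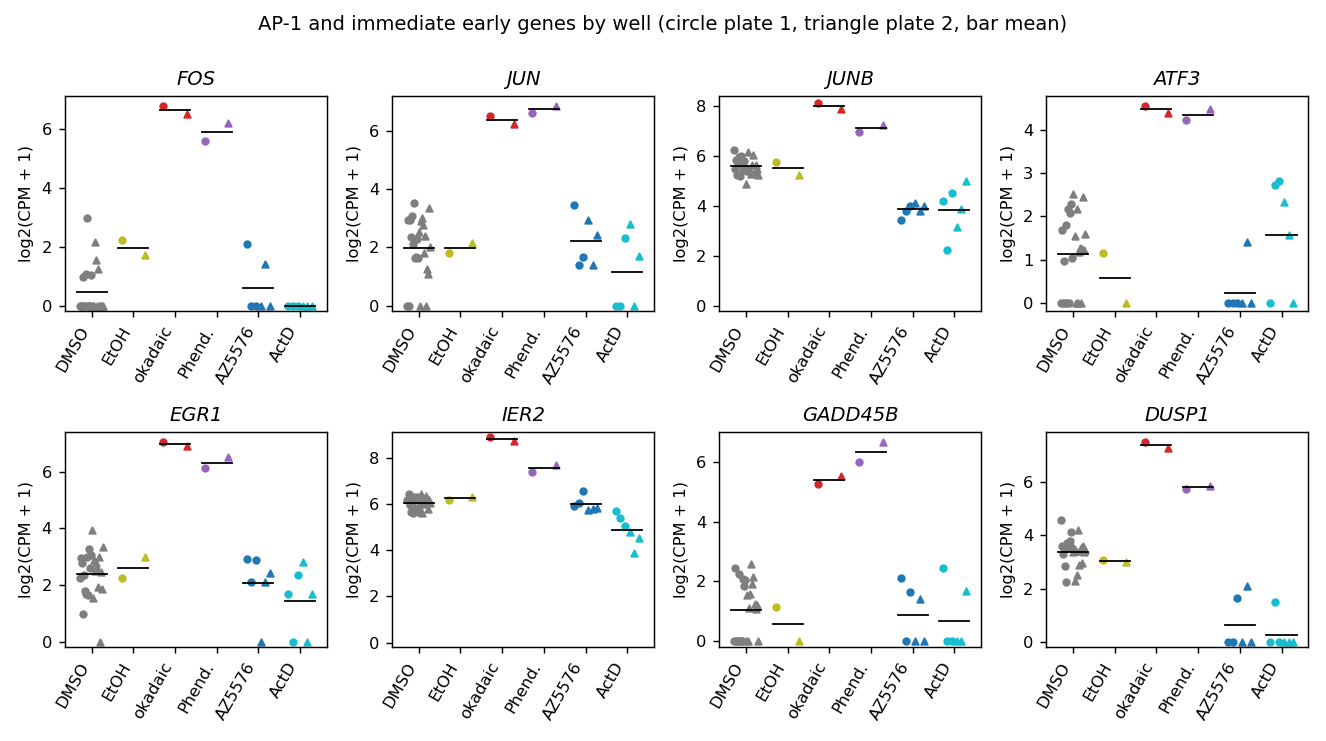
Log2(CPM + 1) of 8 AP-1 and immediate early genes (y axis) in each well of 6 groups (x axis), circles for plate 1 and triangles for plate 2, with a bar at the group mean. The okadaic acid wells lie above all DMSO and EtOH wells for each gene (FOS 111 and 90.7 CPM against at most 6.99 in DMSO), and the Phendione wells are the nearest of the groups drawn.

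The promoters of 5 of these genes are shown as examples, and they were chosen after the values were seen. Each is the 250 bases before the RefSeq start in GRCh38.p14, 5′ to 3′ on the gene's strand: FOS (ENSG00000170345) chr14:75278578-75278827, EGR1 (ENSG00000120738) chr5:138465229-138465478, DUSP1 (ENSG00000120129, minus strand) chr5:172771196-172771445, IER2 (ENSG00000160888) chr19:13150161-13150410 and JUNB (ENSG00000171223) chr19:12791236-12791485. Capitals mark matches on either strand to TGACG (the core of the cyclic AMP response element, read CGTCA on the other strand) or its full palindrome TGACGTCA, to the TATA box TATAAA, and to the CArG box that binds serum response factor.
FOS: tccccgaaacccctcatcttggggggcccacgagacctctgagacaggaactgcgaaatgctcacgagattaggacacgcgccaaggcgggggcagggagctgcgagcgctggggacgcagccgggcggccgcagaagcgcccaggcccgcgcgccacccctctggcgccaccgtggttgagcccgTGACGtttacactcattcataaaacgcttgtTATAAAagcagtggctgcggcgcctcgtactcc
EGR1: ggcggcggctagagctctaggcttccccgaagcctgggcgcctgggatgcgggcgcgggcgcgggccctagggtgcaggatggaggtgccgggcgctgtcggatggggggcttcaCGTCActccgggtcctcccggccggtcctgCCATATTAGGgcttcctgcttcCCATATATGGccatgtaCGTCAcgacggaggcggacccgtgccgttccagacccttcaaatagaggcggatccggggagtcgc
DUSP1: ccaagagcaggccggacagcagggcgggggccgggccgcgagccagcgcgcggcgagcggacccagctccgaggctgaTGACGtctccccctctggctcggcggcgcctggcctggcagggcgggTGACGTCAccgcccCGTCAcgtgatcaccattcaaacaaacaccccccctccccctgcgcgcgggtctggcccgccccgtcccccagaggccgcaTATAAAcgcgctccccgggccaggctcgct
IER2: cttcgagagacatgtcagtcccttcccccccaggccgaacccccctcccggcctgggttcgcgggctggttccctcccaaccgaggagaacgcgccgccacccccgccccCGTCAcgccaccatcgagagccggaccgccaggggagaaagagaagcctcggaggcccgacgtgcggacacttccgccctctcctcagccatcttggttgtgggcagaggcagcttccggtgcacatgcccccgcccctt
JUNB: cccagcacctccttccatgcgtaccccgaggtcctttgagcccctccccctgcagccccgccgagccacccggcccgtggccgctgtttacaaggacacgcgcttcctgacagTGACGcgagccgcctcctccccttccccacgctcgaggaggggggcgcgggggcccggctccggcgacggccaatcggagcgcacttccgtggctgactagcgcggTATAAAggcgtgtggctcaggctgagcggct
All 5 promoters held TGACG, with 4 matches in DUSP1, where 2 of them overlap in the full palindrome, and 2 in EGR1, which also held 2 CArG boxes. TATAAA was found in FOS, DUSP1 and JUNB. Over the 12 called genes at least 4-fold higher that had a RefSeq promoter, 7 held TGACG and 5 held TATAAA. Those without TGACG were GADD45B, ATF3, ID2, ZFP36 and ARRDC3, so the 5 promoters shown do not stand for the set. Of the 6995 tested genes with a promoter, 33.3% held TGACG and 4.92% TATAAA, and of all 27305 RefSeq promoters 21.7% and 11.1% did. Sequence outside the 250 bases was not searched, so a motif not found here may lie further upstream. A match is a run of letters, and no binding was measured.

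Stress pathways of the endoplasmic reticulum and of ATF4 moved upwards by smaller amounts. Of 20 tested unfolded protein response genes 9 rose and none fell (median log2 change 0.41), and of 23 ATF4 and integrated stress genes 9 rose and 1 fell (median 0.36). Over all tested genes 14.4% rose and 15.6% fell. HSPA5, the main chaperone of the endoplasmic reticulum, had 176 and 162 CPM against 38.3 to 118 (median 68.8) with DMSO, a log2 change of 1.24 (SE 0.12). PDIA4, a disulfide isomerase, had 199 and 186 CPM against 62.6 to 130 (median 93.2; log2 1.02), and PDIA3, a related enzyme, had 180 and 173 CPM against 47.3 to 86.8 (log2 1.35). For these 3 genes the groups did not overlap. PPP1R15A (GADD34), which directs PP1 to the translation factor eIF2, had 59.6 and 71.7 CPM against 21.03 to 55.6 (log2 1.08, SE 0.16). DDIT3 (CHOP) rose less, at 59.6 and 63.8 CPM against 25.1 to 61.9 (log2 0.70), and its call was lost when only the first-column or only the same-column DMSO wells served as reference. Scaled to the ERCC RNAs, 3 rather than 9 unfolded protein response genes passed.

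Of 21 tested cytosolic and mitochondrial chaperone genes 4 rose and none fell, led by HSPA8 at 1040 and 1207 CPM against 433 to 753 (log2 0.96) and HSP90AB1 at 1506 and 1450 against 503 to 898 (log2 0.97). The heat-inducible HSPA1A was at 112 and 85.1 CPM against 68.9 to 125 with DMSO, inside the DMSO range. Among BCL2 family genes, 4 of 12 rose and 2 fell. BBC3 (PUMA), a death-promoting member, had 37.0 and 34.7 CPM against 2.95 to 18.9 (log2 1.63), while BAD, another, had 31.8 and 32.5 against 42.5 to 91.5 (log2 -1.13). Of 16 tested p53 targets 3 rose and 1 fell, beside 14.4% and 15.6% over all tested genes. The lower call was ZMAT3, with 2 counts over both okadaic acid wells, and most of the alternatives run lost it. CDKN1A (p21) did not pass (log2 0.53, SE 0.59).

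The phosphatase genes themselves were called about as often as genes at large. Of 25 PP2A subunit and regulator genes, 4 rose and 3 fell (median log2 change 0.08), beside 30.1% called over all tested genes. PPP2CA, which encodes the main catalytic subunit of PP2A, had 105 and 119 CPM against 56.7 to 107 (log2 0.25, SE 0.12, edgeR adjusted p = 0.105), and the scaffold gene PPP2R1A differed by 0.10 (SE 0.12, edgeR adjusted p = 0.579). The members that rose were the inhibitor gene SET (log2 0.51), the PP2A inhibitor ANP32A (0.50), IGBP1 (0.44) and TIPRL (0.41), whose products bind PP2A-type catalytic subunits. Scaled to the ERCC RNAs, none of the 25 rose, and the IGBP1 call was lost under most of the alternatives run. The members that fell were regulatory subunit genes. STRN4, a striatin, had 15.4 and 17.9 CPM against 25.8 to 60.3 (log2 -1.08, SE 0.27), below every DMSO well. It was called against DMSO under every alternative run, but not against EtOH (log2 -0.94, edgeR adjusted p = 0.0534). Against EtOH 3 of the 25 PP2A genes rose and none fell. PPP2R2D had 8.21 and 7.84 CPM against 9.69 to 31.4 (log2 -1.14), a call lost with either okadaic acid well left out. PPP2R5B had 2 counts over both wells against 78 over the DMSO wells, a ratio of 0.21 per human count (95% interval 0.025 to 0.77), and most of the alternatives run lost its call. Of 14 PP1 genes, 2 rose and 3 fell, and PPP1CB, a PP1 catalytic subunit, had 161 and 156 CPM against 44.8 to 112 (log2 1.04, SE 0.15). Of 15 Integrator genes 2 rose and 3 fell, and of 29 P-TEFb and elongation genes 1 rose and 4 fell.

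Splicing factor and ribosomal protein mRNAs made up broad groups of higher calls. Of 29 SR and hnRNP genes 13 rose and 1 fell (median log2 change 0.29), beside 14.4% higher and 15.6% lower over all tested genes. The same counts, 13 and 1, were found against EtOH, where 6.82% of all genes were higher and 8.26% lower. SRSF7, a serine- and arginine-rich splicing factor, had 462 and 517 CPM against 204 to 271 (log2 1.05, SE 0.08), and HNRNPF had 419 and 405 against 129 to 232 (log2 1.05, SE 0.09). The 78 cytosolic ribosomal protein genes had 54 higher and 2 lower calls against DMSO (median 0.39) and 25 higher and none lower against EtOH. Scaled to the ERCC RNAs, 19 of the 78 rose against DMSO. RPS20 led with 2496 and 2633 CPM against 780 to 1577 (log2 0.96), and RPS26 was lower (log2 -0.51), a call lost with ERCC scaling, where none of the 78 fell, and without the plate 1 well. These genes have many processed pseudogenes that can share their reads, and 435 of 1499 tested pseudogenes were called higher.

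Actin mRNAs rose. ACTB, cytoplasmic beta-actin, had 1862 and 1751 CPM against 643 to 961 (median 841; log2 1.10, SE 0.07), and ACTG1, gamma-actin, had 877 and 870 against 279 to 504 (log2 1.03). LMNB1, which encodes the nuclear lamina protein lamin B1, had 27.7 and 30.2 CPM against 3.48 to 17.7 (log2 1.40). In all, 8 of 26 cytoskeleton genes rose and 2 fell, beside 14.4% higher and 15.6% lower over all tested genes. ELAVL1 (HuR), which stabilises AU-rich mRNAs, had 208 and 185 CPM against 64.2 to 136 (log2 1.12). For ACTB, ACTG1, LMNB1 and ELAVL1 the okadaic acid wells were above every DMSO and EtOH well.

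**Figure D3:**
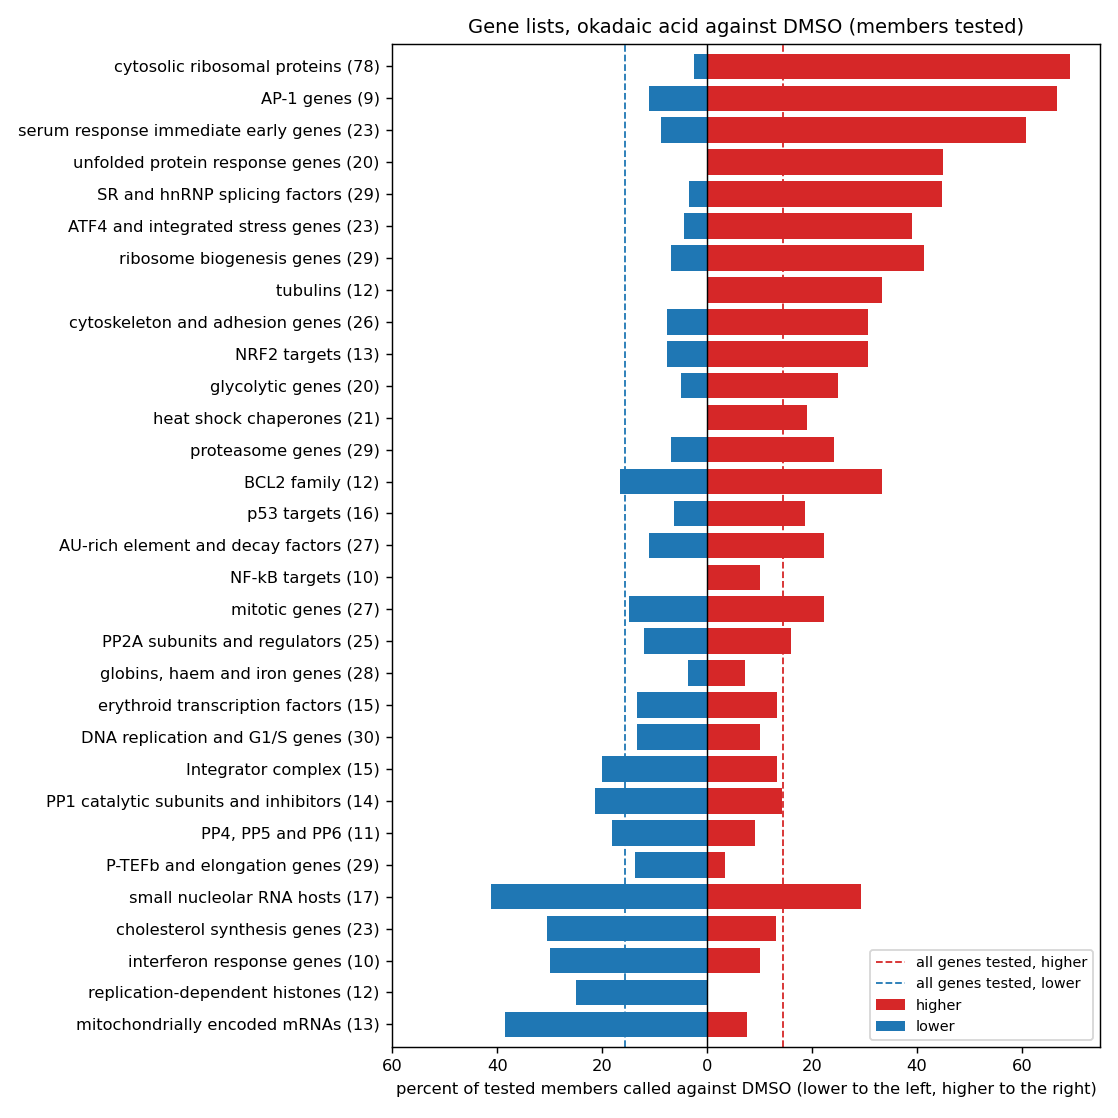
Percent of the tested members of each list called higher (red, to the right) and lower (blue, to the left) against DMSO on the x axis, with the lists on the y axis and the number tested in brackets. Dashed lines mark 14.4% higher and 15.6% lower over all tested genes. The AP-1 genes (6 of 9 higher) and the ribosomal proteins (54 of 78 higher) extend far past the line, and the small nucleolar RNA hosts have bars on both sides (5 higher, 7 lower).

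Several noncoding transcripts fell by large amounts. Of 479 tested long noncoding RNAs 199 (41.5%) were lower and 15 (3.13%) higher, with a median log2 change of -0.94, and against EtOH 22.1% were lower. Protein-coding genes had 15.6% lower and 12.6% higher, with a median of -0.11. In GENCODE 29 the called protein-coding genes were short, with a median span of 22.6 kb for the 1021 higher and 16.4 kb for the 1264 lower ones beside 32.8 kb for those not called, and the called genes were also the more abundant (medians 6.22, 4.85 and 4.06 log2 CPM). The median abundance of these long noncoding RNAs, 11.97 CPM, was below that of protein-coding genes, 21.1 CPM, and the part of abundance in this difference was not tested. VTRNA1-3, an RNA of the vault ribonucleoprotein, had 10.3 and 14.6 CPM with okadaic acid against 150 to 492 (median 234) with DMSO, 19.1-fold lower (log2 -4.26, SE 0.33). It was also below the mean of each of the 73 other treatments. VTRNA2-1 fell likewise (log2 -3.25), and VTRNA3-1P had 2 counts over both wells against 911 over the 24 DMSO wells, a ratio of 0.018 per human count (95% interval 0.0021 to 0.064, counting error only). VTRNA1-1 had none against 107, which puts it at least 4.42-fold lower at a floor of 3 counts over the group, and its call was lost against the 2 DMSO wells of the same plate column. Vault RNA rows have related sequences and can share reads. On both plates the first-column DMSO wells had more VTRNA1-3 than the other DMSO wells, at 256 to 351 against 150 to 228 CPM on plate 1. The same held for SNHG25, MIR142HG, NEAT1 and CCNL2, named below, but not for H4C3. The size of these falls therefore depends on the DMSO wells used. How far these wells enter the 41.5% of long noncoding RNAs was not tested.

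MIR142HG, the host transcript of a blood cell microRNA, had 15.4 and 8.96 CPM against 115 to 314 (median 158), 13.4-fold lower (log2 -3.74, SE 0.32). SNORD104, a small nucleolar RNA, had 4.11 and 3.36 CPM against 38.8 to 117 (log2 -3.93). Which forms of SNORD104 and of the vault RNAs gave these 3′ end counts was not measured, so they need not follow the total RNA. NEAT1, the RNA scaffold of nuclear paraspeckles, had 23.6 and 16.8 CPM against 64.7 to 156 (median 91.3; log2 -2.18, SE 0.27). MALAT1, another abundant nuclear RNA, overlapped the DMSO range at 40.0 and 50.4 CPM against 42.3 to 134, and its log2 change of -0.64 lost its call under several alternatives. The same region of the list held MIR23AHG (log2 -3.24), another microRNA host, and the noncoding LINC01311 (-3.86) and PRKACB-DT (-3.62). Among coding genes, CCNL2, a cyclin of the splicing-linked kinases, fell to 24.6 and 36.9 CPM from 74.3 to 212 (log2 -1.92).

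The small nucleolar RNA hosts split. Of 17 tested, 7 fell and 5 rose, and both wells were below all DMSO wells in 7 and above all of them in 4. Over all tested genes 15.6% fell and 14.4% rose, and 6.69% lay below and 8.13% above all DMSO wells. SNHG25 had 46.2 and 51.5 CPM against 152 to 510 (median 242; log2 -2.36, SE 0.24) and SNHG19 had 49.3 and 63.8 against 119 to 584 (log2 -2.002, SE 0.29). On plate 1 SNHG25 was at 304 to 444 CPM in the first-column DMSO wells and 152 to 285 in the other DMSO wells. On plate 2 these ranges were 338 to 510 and 199 to 257. In the other direction SNHG29 had 1878 and 1666 CPM against 717 to 1174 (log2 0.86, SE 0.10) and ZFAS1 had 489 and 533 against 246 to 374 (log2 0.62). The strand of counting is not given in the labels, so reads of a host, of the small RNA inside it and of an antisense neighbour cannot be told apart.

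H4C3, a replication-dependent histone gene of the H4 cluster, fell to 19.5 and 30.2 CPM from 117 to 299 (median 190; log2 -3.01, SE 0.22). Which forms of histone RNA gave these 3′ end counts was not measured, so they need not follow the total RNA. Of the 12 tested histone genes 3 fell and none rose, and the list median was -0.37. Of 30 DNA replication genes 3 rose and 4 fell. Over all tested genes 14.4% were higher and 15.6% lower against DMSO, and 6.82% higher and 8.26% lower against EtOH. The mitochondrially encoded mRNAs fell in 5 of 13 cases and rose in 1 against DMSO, and fell in 7 against EtOH. MT-ND6, the mRNA encoded on the other mitochondrial strand from the rest, fell most, to 96.5 and 76.1 CPM from 161 to 259 (log2 -1.27, SE 0.14). Summed mitochondrial counts were 7.62% and 7.79% of human counts with okadaic acid, 8.52% to 10.6% with DMSO and 10.3% and 10.9% with EtOH.

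**Figure D4:**
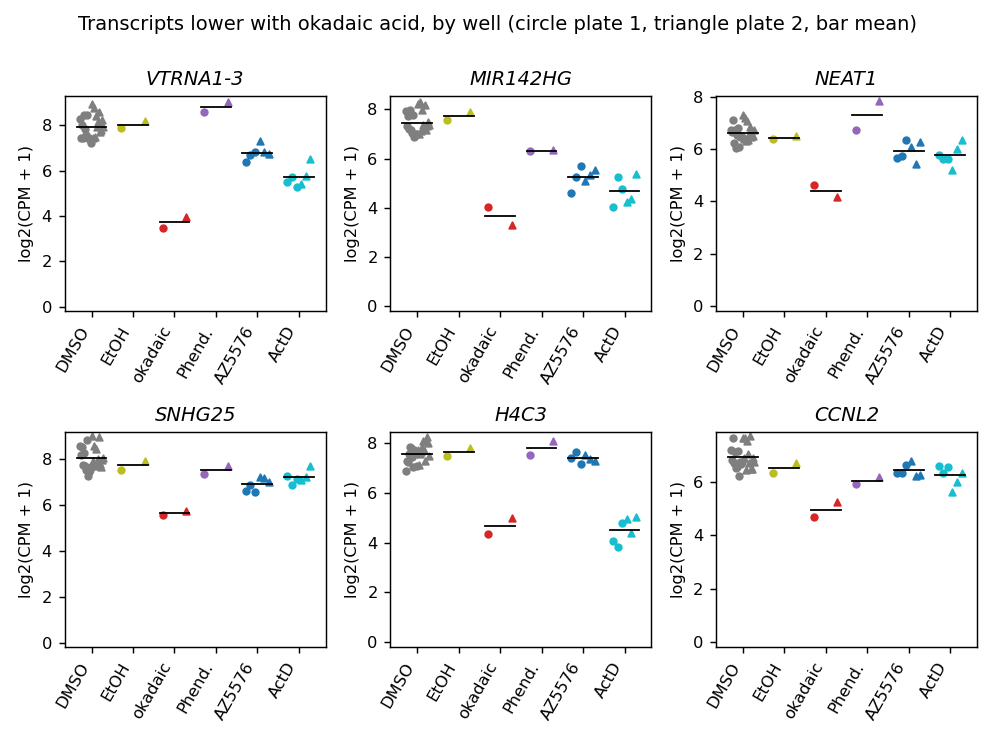
Log2(CPM + 1) of 6 transcripts lower with okadaic acid (y axis) in each well of 6 groups (x axis), circles for plate 1 and triangles for plate 2, with a bar at the group mean. Both okadaic acid wells lie below every DMSO well for each gene (VTRNA1-3 at 10.3 and 14.6 CPM against at least 150), and H4C3 is similarly low in the ActD wells (12.99 to 31.3 CPM).

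Of 23 cholesterol synthesis genes 7 fell and 3 rose against DMSO, beside 15.6% lower and 14.4% higher over all tested genes, and against EtOH 3 fell and none rose, beside 8.26% and 6.82%. MVD, an enzyme of the mevalonate pathway, had 86.2 and 85.1 CPM against 112 to 222 (log2 -0.80). Of 10 tested interferon response genes 3 fell and 1 rose against DMSO, and 1 fell and none rose against EtOH. ISG15, a ubiquitin-like interferon product, had 25.7 and 19.0 CPM against 41.0 to 70.4 (log2 -1.17), and IRF7 had no count in either okadaic acid well against 99 counts over the DMSO wells, at least 4.08-fold lower at the 3-count floor.

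The calls of erythroid transcription factor genes differed between the 2 solvent references. Against DMSO, 2 of 15 rose and 2 fell, beside 14.4% and 15.6% over all tested genes. Against EtOH 1 rose and 6 fell, beside 6.82% and 8.26%. The 2 EtOH wells shared 1 plate position, so solvent and position cannot be told apart. Of 28 globin, haem and iron genes 2 rose and 1 fell against DMSO (median log2 change 0.02). Against EtOH 1 of the 28 rose and 3 fell (median -0.07). GATA1, the master regulator of red cell genes, had 212 and 239 CPM with okadaic acid, 141 to 345 (median 254.8) with DMSO and 464 and 398 with EtOH. Its difference was -0.11 (SE 0.12, edgeR adjusted p = 0.554) from DMSO and -0.94 (SE 0.16, edgeR adjusted p = 2.03e-06) from EtOH. EtOH itself differed from DMSO in 82 genes (0.795%), 66 higher (0.64%) and 16 lower (0.155%), and GATA1 was among the former (log2 0.83). HEMGN, a haematopoietic nuclear protein gene, was higher against both, with 66.7 and 76.1 CPM against 14.4 to 39.2 with DMSO and 43.1 and 48.5 with EtOH (log2 1.43 and 0.63). The fetal globin genes HBG1 and HBG2 did not differ from EtOH beyond the spread (log2 -0.07 and -0.06, SE 0.11 and 0.10).

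Against EtOH, 1555 genes (15.1%) were called, 703 higher and 852 lower, and with ERCC scaling 673, of which 74 were higher and 599 lower. The immediate early genes were higher against EtOH too: FOS had 3.69 and 2.31 CPM with EtOH (log2 5.00, SE 0.48), EGR1 3.69 and 6.92 (log2 4.51), IER2 71.4 and 78.4 (log2 2.56) and DUSP1 7.38 and 6.92 (log2 4.53). VTRNA1-3, at 235 and 291 CPM with EtOH, differed by -4.39 (SE 0.38), and H4C3 by -2.98. MYC was higher against DMSO (log2 0.36, SE 0.13), a call that several alternatives lost, and -0.41 (SE 0.16, edgeR adjusted p = 0.073) against EtOH.

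Against the transcription inhibitors, okadaic acid wells had more of the immediate early mRNAs. Compared with AZ5576, 1346 genes (13.1%) were higher and 1000 (9.7%) lower, and 19 of 23 serum response genes were higher and none lower. MYC was at 132 and 148 CPM with okadaic acid and 3.31 to 23.9 with AZ5576 (log2 3.18, SE 0.22), and DUSP1 was at 0 to 3.27 CPM there (log2 7.07). Compared with ActD, 1149 genes (11.1%) were higher and 831 (8.06%) lower. Some transcripts that were low with okadaic acid were also low with ActD: H4C3 was at 12.99 to 31.3 CPM with ActD, 0.13 (SE 0.35, edgeR adjusted p = 0.85) from okadaic acid, and SNORD104 was at 4.03 to 9.28. VTRNA1-3 was lower with okadaic acid than with either, by log2 differences of -3.15 (AZ5576) and -2.09 (ActD), and MT-ND6 was higher than with ActD (log2 3.33) and lower than with AZ5576 (log2 -1.73). These counts hang on the scaling, since the ERCC ratio moved the median of all genes from 0.08 to 0.79 against AZ5576 and from 0.03 to 0.92 against ActD. With ERCC scaling 4802 genes were higher and 117 lower than with AZ5576, and 5788 higher and 58 lower than with ActD, and by library size alone 2463 and 554, and 1468 and 631.

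Phendione was added as a reference after the values were seen, because its wells had the highest level of FOS, JUN and several stress genes among the other 73 treatments. Okadaic acid differed from it in 1035 genes (10.0%), 429 (4.16%) higher and 606 (5.88%) lower. With ERCC scaling the split was 469 higher and 177 lower, and by library size alone 613 and 530. For FOS, Phendione wells had 48.3 and 73.2 CPM (log2 difference 0.72, SE 0.28, edgeR adjusted p = 0.0847), and for JUN 96.7 and 115 (log2 -0.38, SE 0.25, edgeR adjusted p = 0.387). A missed threshold does not show that the wells act alike. JUNB (125 and 153 CPM; log2 0.90), IER2 (165 and 206; 1.26) and DUSP1 (53.05 and 56.8; 1.62) were higher with okadaic acid. GADD45B (62.5 and 101; -0.99), DDIT3 (149 and 160; -1.32), DDIT4 (523 and 542; -2.68) and HSPA1A (868 and 1365; -3.48) were higher with Phendione. Of the 23 cholesterol synthesis genes 13 were lower with okadaic acid than with Phendione and none higher. VTRNA1-3 was at 383 and 519 CPM with Phendione (log2 -5.16) and H4C3 at 180 and 270 (log2 -3.17), so neither was below the DMSO range there. MT-ND6, at 16.5 and 27.8 CPM, was lower with Phendione than with okadaic acid (log2 1.98).

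**Figure D5:**
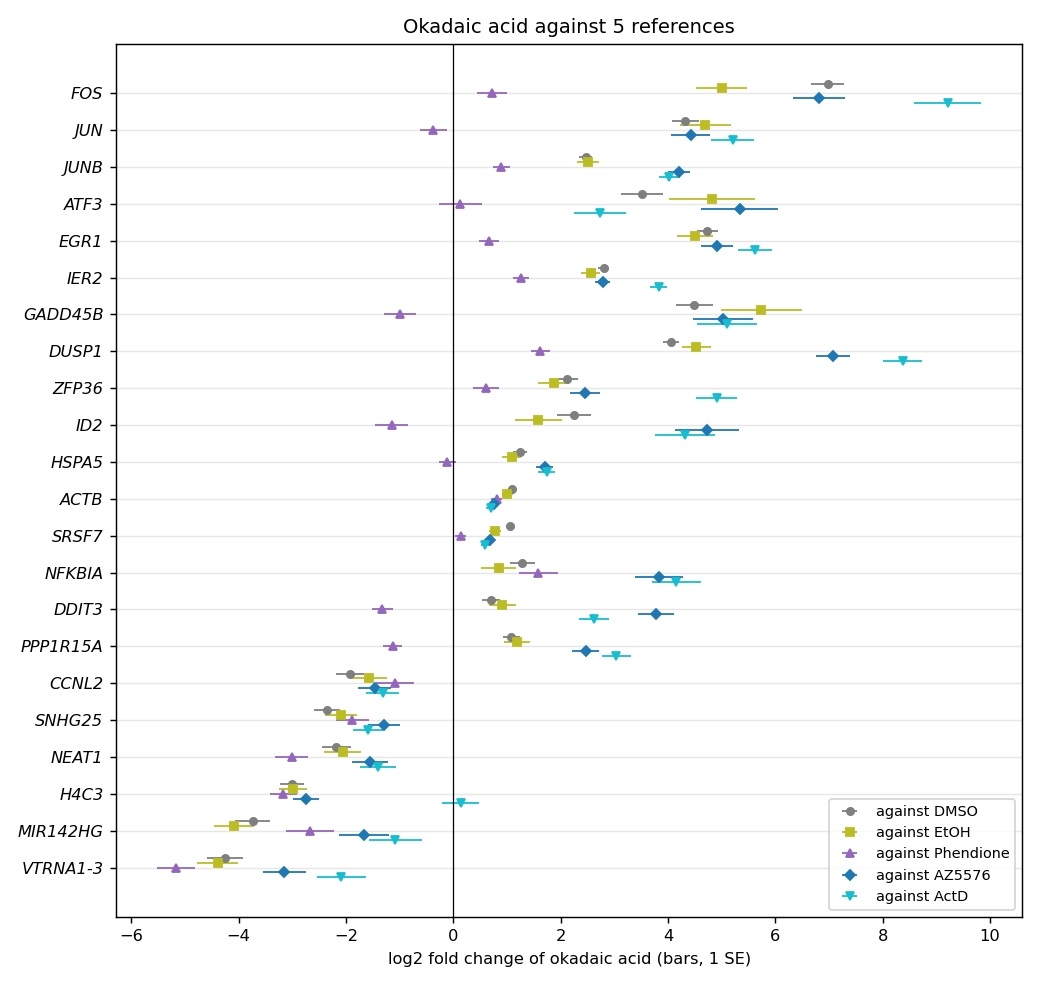
Log2 fold change of okadaic acid (x axis, bars 1 SE) against DMSO, EtOH, Phendione, AZ5576 and ActD for 22 genes (y axis). FOS is 6.98 above DMSO and 0.72 above Phendione, and VTRNA1-3 is below all 5 references (-2.09 to -5.16).

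Over all 73 other treatments, the okadaic acid wells had the highest mean CPM of FOS, ATF3, EGR1, DUSP1, ZFP36, NFKBIA, PDIA3, ACTB, SRSF7, HNRNPF and BBC3. THZ531, an inhibitor of transcriptional CDKs, exceeded them for JUNB (443 CPM) and IER2 (688 CPM). At the other end, they had the lowest mean of VTRNA1-3, MIR142HG, SNORD104, NEAT1, SNHG25 and CCNL2, and ActD alone was lower for H4C3 (22.7 CPM). Against the unweighted mean of the 73 treatments, 2739 genes (26.6%) were called, 1564 higher (15.2%) and 1175 lower (11.4%), and FOS was 6.77 and DUSP1 4.27 higher on the log2 scale.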

How the data were processed

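The authors deposited 1 table of raw counts per plate (192 wells, whole-number gene and ERCC counts in a file whose summary lines are fractional, so handled under the unit of expected counts) and a table that maps wells to drug names. The submitters' processing notes name GRCh37 (hg19), R 4.0.2, cutadapt 2.1, FastQC 0.11.6 and bcl2fastq 2.17.1.14. Which aligner, counter, annotation and strand setting were used is not given in the sources used here. Okadaic acid wells averaged 2.31 to 2.40 reads per molecular identifier. Whether a count is 1 read or 1 collapsed identifier was not established. Intervals and floors treat each count as independent and cover counting error only.

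Genes were filtered with filterByExpr and fitted in edgeR 4.0.16 (R 4.3.3) over all 192 wells, with TMM scaling, 1 term per treatment and plate as a block, tested by quasi-likelihood with Benjamini-Hochberg adjustment over 10312 genes and a threshold of 0.05. SE is the log2 change divided by the square root of F. CPM use the TMM-scaled library. Both plates share layout, so a treatment and its position cannot be told apart. The plate number pairs the wells because the labels give a plate to each sample. The 2 okadaic acid wells differed by more than counting noise (chi-square per degree of freedom 1.15, against 1.10 to 1.81 for DMSO positions) and were kept as 2. On simulated data with 200 changed genes among 10312, the fit found 60% of 2-fold and 95% of 4-fold changes, with 8 false calls. The changed genes were drawn above a minimum mean count, with as many up as down. In the data 30.1% of genes were called and low-count genes were included, so these rates need not hold there.

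Named genes were the 15 largest called changes per direction at a mean of 5 log2 CPM or more, up to 4 called members of each list by p, all phosphatase genes and a fixed set, with the 5 largest per direction in other comparisons. Members and lists were chosen with earlier results of these data known. GADD45B, ID2, LYZ, NEAT1, MALAT1, CCNL2, IRF7, RPS26 and VTRNA1-1, the Phendione comparison, the promoters, motifs and transcript classes were chosen after values were seen. Transcript classes came from GENCODE 29, matched by identifier for 10128 of the 10312 genes. Alternatives covered scaling, filters, limma-voom 3.58.1, DESeq2 1.42.0, the wells fitted, the reference wells and leaving out each plate's well.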

Additional observations from a re-analysis of the deposited data

Results flagged for a closer look

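Among 8 immediate early genes checked, 3 groups of 6 wells held a well far from the others by the ratio of gap to range. A rate of about 1 in 20 groups flagged by chance need not hold where most wells are at 0. With 5 wells at 0 the ratio is 1.0 for any value of the other well. ATF3 in the AZ5576 wells was at 0 in 5 wells and 1.64 CPM in 1, a ratio of 1.0. DUSP1 in the ActD wells was at 0 in 5 wells and 1.85 CPM in 1, again 1.0, so both rest on a single well above 0. IER2 in the AZ5576 wells ran from 52.9 to 65.5 CPM in 5 wells and was 94.4 in the other, a ratio of 0.695. The okadaic acid wells were above all of these, at 20.2 CPM or more for ATF3, 155 for DUSP1 and 417 for IER2.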

How the results depend on the processing

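The genes called against DMSO numbered 3103. They were 1862 with ERCC scaling, 1758 against the DMSO wells of the same plate column, 1059 at 2-fold or more, and 1499 to 1786 with 1 okadaic acid plate left out; with no replicate block for plate they were 2836. The 1862 calls with ERCC scaling were all among the 3103 in the same direction. Against EtOH the 1555 became 673 with ERCC scaling, 1008 with at least 1 CPM in 2 wells and 755 to 1006 with a plate left out (1251 with no replicate block). Against AZ5576 the 2346 became 4919 with ERCC scaling and 1561 to 1631 with a plate left out. Against ActD the 1980 became 5846 with ERCC scaling and 1235 to 1268. Against Phendione the 1035 became 646 with ERCC scaling, 686 unfiltered, 684 with the 1 CPM filter and 452 to 639. Leaving out the plate block moved none of these 5 counts by over 1.5 times. The difference in human counts per ERCC count, 0.11 log2, became -0.056 with DMSO wells outside the first column, and ran from 0.037 to 0.19 with a plate left out. The cause was not tested, except that unfiltered fits test more genes and fits without a plate use fewer wells. Of 175 named genes called against DMSO, 108 kept call and direction under all 13 alternatives run, and none reversed. Genes of a few counts per well, such as FOSB, VTRNA1-1 and IRF7, are limited by depth. The same-column DMSO and mean-of-treatments references were chosen after seeing the data.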
